A study of Homo sapiens with 8 samples.

Results

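The genes described here are 45 components of the DNA replication and S phase machinery, followed across RNA-seq libraries of TMD8 cells. TMD8 is a human cell line from a diffuse large B cell lymphoma of the activated B cell-like type, which depends on B cell receptor signalling. They were chosen by name: each listed symbol, or a former symbol of the same gene, was looked up in the deposited table of 25066 genes, and all 45 were found, 3 of them under former symbols (ORC1L, ORC6L and CDC45L). All 45 also passed the filter on low values, among 12531 genes tested. The cells carried lentivirally introduced Cas9, with either a guide against KLHL14, a Kelch-like protein that serves cullin-3 as a substrate adaptor (sgKLHL14, genotype given as KLHL14(-/-)), or a control guide (sgCTRL, given as KLHL14(+/+)). Cells with each guide received ibrutinib at 2 nM, a covalent inhibitor of Bruton tyrosine kinase, or the solvent DMSO, for 24 h. The 4 groups are thus sgKLHL14 in ibrutinib, sgCTRL in ibrutinib, sgKLHL14 in DMSO and sgCTRL in DMSO, with 2 libraries each. The labels do not say whether the edited cells were a clone or a pool, nor whether the libraries within a group were grown apart. The p-values therefore reflect only how far these samples spread, and that spread may be technical.

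DNA replication starts at origins that are licensed in G1 phase, when the origin recognition complex, CDC6 and CDT1 load the MCM2-7 helicase ring onto DNA. In S phase CDC45 and the GINS complex join the ring and make it an active helicase, and DNA polymerase alpha with primase, polymerases delta and epsilon, the PCNA clamp, its loader RFC and the single-strand binding protein RPA copy the strands behind it. Many of these genes are E2F targets, silenced in resting lymphocytes and switched on when B cells enter the cell cycle.

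Total reads ran from 12333876 to 23467110 per library, and the 45 genes had between 141 and 11856 reads in any library. In sgKLHL14 both DMSO libraries (23467110 and 22189713 reads) were deeper than both ibrutinib libraries (16843591 and 12333876), so depth and treatment go together there. In sgCTRL the totals were 13497206 and 23152352 in DMSO, and 16520319 and 13331861 in ibrutinib. Fits on reads thinned to equal depth are among the alternatives below. In the libraries labelled sgKLHL14 the KLHL14 transcript itself was not reduced, with log2 levels of 13.16 and 13.16 in ibrutinib against 12.30 and 12.30 in sgCTRL, and of 12.19 and 12.33 in DMSO against 12.07 and 12.06 in sgCTRL. It was 1.81-fold higher in sgKLHL14 in ibrutinib (limma, Benjamini-Hochberg adjusted p = 2.62e-08), and in DMSO its difference of 0.20 did not pass (adjusted p = 0.107). The cause of this rise was not tested. Small Cas9 insertions or deletions need not lower a read count, so the genotype is not checked by these levels. Directions by guide are given for the libraries as labelled. The B cell markers MS4A1, CD79A, CD79B and PAX5 were all expressed. Of 5 T cell, 5 myeloid and 5 epithelial or fibroblast markers, 1, 0 and 3 passed the filter on low values, and the T cell receptor components CD3D and CD3E had no read in any library. Per 1000000 reads of a library, these 4 B cell markers summed to 3610 to 3850 in ibrutinib and 2420 to 2710 in DMSO, and the T cell markers to 1.88 to 2.59 in ibrutinib and 1.40 to 1.49 in DMSO. The myeloid markers summed to 0.730 to 1.28 in ibrutinib and 0.639 to 0.963 in DMSO, and the epithelial and fibroblast markers to 14.8 to 16.9 in ibrutinib and 14.0 to 17.2 in DMSO. The part of these shifts in the results below was not tested.

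RefSeq promoter windows (GRCh38.p14, from 250 bases before to 50 after each transcription start) were at hand for 38 of the 45 genes. Eight-letter E2F-type strings, namely TTTCCCGC, TTTCGCGC, TTTGCCGC and TTTGGCGC on either strand, were present in a window of 19 of these 38 genes (50%). Among the 9618 tested genes with a window, 6.92% held such a string. Counted by single windows, 20 of the 47 windows of these 38 genes held such a string (42.6%), against 3.31% of all 35116 windows. The 100 bases just before the start are printed for some of the members named below, with the E2F-type strings in capitals. MCM6, MCM7, PCNA, GINS2 and CDT1 hold such a string there. MCM7 has 3 windows and PCNA has 2. The window printed for each was chosen because it holds a string there, and their other windows hold none. CHAF1B, whose mRNA was among those that fell most, holds none in its whole window. It is 1 of 19 genes without a string, CDC45 and WDHD1 among them. The strings of MCM2 and GINS1 lie after the start and are not printed.
MCM6 (chr2:135876444-135876543, minus strand): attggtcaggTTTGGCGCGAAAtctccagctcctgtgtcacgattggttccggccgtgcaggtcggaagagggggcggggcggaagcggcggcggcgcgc
MCM7 (chr7:100101398-100101497, minus strand): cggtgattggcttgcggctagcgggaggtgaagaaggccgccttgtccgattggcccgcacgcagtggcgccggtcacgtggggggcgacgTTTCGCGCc
PCNA (chr20:5126623-5126722, minus strand): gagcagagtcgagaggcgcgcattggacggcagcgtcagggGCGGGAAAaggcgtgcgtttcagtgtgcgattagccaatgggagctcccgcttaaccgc
GINS2 (chr16:85688955-85689054, minus strand): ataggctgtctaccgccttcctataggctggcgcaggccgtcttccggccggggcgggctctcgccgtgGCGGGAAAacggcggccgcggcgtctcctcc
CDT1 (chr16:88803689-88803788, plus strand): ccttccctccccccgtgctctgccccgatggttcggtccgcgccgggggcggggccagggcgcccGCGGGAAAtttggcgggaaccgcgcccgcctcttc
CHAF1B (chr21:36385292-36385391, plus strand): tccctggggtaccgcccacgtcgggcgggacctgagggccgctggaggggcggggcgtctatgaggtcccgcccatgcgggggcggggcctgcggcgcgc
In the MCM6 stretch a forward and a reverse string overlap, and a second such pair lies farther from the start. The 5 letters CCAAT, on either strand, were present for 21 of the 38 genes (55.3%, against 43.4% of tested genes), and TTTGAA or TTCGAA for 1 of 38, MCM6 (2.63%, against 15.7%).

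The first comparisons ask what ibrutinib did to replication mRNAs with each guide. Ibrutinib lowered most of them, by modest amounts. In sgKLHL14 cells 37 of the 45 genes fell and 0 rose (limma, Benjamini-Hochberg adjusted p under 0.05), which is 82.2% of them. Of all tested genes 39.3% passed, 19.4% falling and 19.9% rising. In sgCTRL cells 26 fell and GINS3 and CCNE2 rose, so that 57.8% fell. Of all tested genes 35.1% passed there, 17.0% falling and 18.1% rising. The median log2 change was -0.41 in sgKLHL14 (0.755-fold), beside 0.01 over all tested genes, and -0.20 in sgCTRL (0.871-fold), beside 0.02. All 26 genes that fell in sgCTRL also fell in sgKLHL14, 11 fell past the threshold in sgKLHL14 and not in sgCTRL, and 6 passed in neither. Both ibrutinib libraries lay below both DMSO libraries for 42 of the 45 genes in sgKLHL14 (33.1% of all tested genes) and for 34 in sgCTRL (33.1%). They lay above them for 0 in sgKLHL14 (34.7%) and 2 in sgCTRL (36.7%). The median sgCTRL change of the 45 genes was -0.22 without sgCTRL ibrutinib replicate 1 and -0.20 without replicate 2.

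Reads of the 45 genes summed, per 1000000 reads of a library, to 4272 and 4317 in the sgKLHL14 ibrutinib libraries, against 5542 and 5452 in sgKLHL14 DMSO, a change of -21.88% between group means. They summed to 4670 and 4625 in sgCTRL ibrutinib, against 5342 and 5216 in sgCTRL DMSO, a change of -11.96%. The 4 groups did not overlap in this sum. Between guides (sgKLHL14 against sgCTRL) the group means differed by 4.127% in DMSO and by -7.604% in ibrutinib, which was not tested. With 2 libraries in each group such separation is common. Between guides in DMSO, 21.5% of all tested genes lay above without overlap and 20.2% below. In bulk RNA, fewer cells in S phase and less RNA per cell cannot be told apart.

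**Figure D1:**
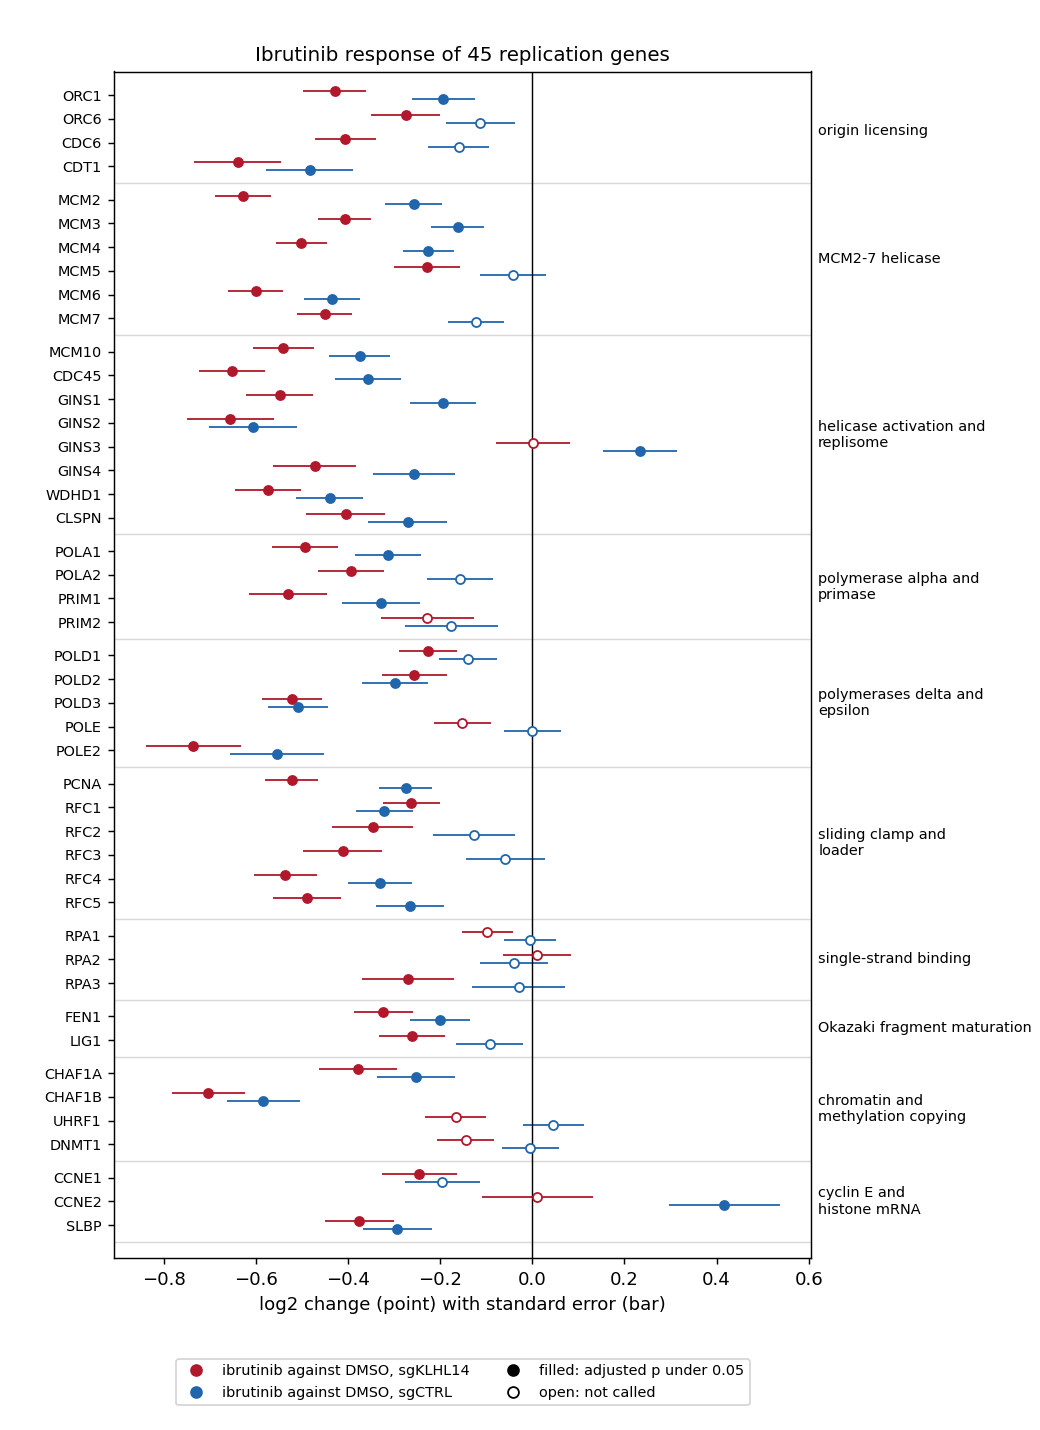
Log2 change (ibrutinib against DMSO) of each replication gene in sgKLHL14 (red) and sgCTRL (blue) cells, by role, with standard errors from the fit over all tested genes; filled points passed an adjusted p of 0.05. Red points lie left of blue ones for all genes but POLD2, RFC1 and RPA2, and 37 red and 26 blue filled points lie below 0.

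Licensing factors fell in all 4 cases in sgKLHL14 and in 2 of 4 in sgCTRL. CDT1, which brings the helicase to the origin, fell by 0.64 in sgKLHL14 (SE 0.094, limma adjusted p = 2.32e-05) and by 0.48 in sgCTRL (adjusted p = 0.000504). ORC1, the origin recognition subunit whose level cycles in human cells, fell by 0.43 in sgKLHL14 and 0.19 in sgCTRL. CDC6, an ATPase that works with it, fell by 0.41 in sgKLHL14 and was at -0.16 in sgCTRL, and ORC6, the smallest origin recognition subunit, fell by 0.27 in sgKLHL14 and was at -0.11 in sgCTRL. The sgCTRL call of ORC1 ended when any of the 4 sgCTRL libraries was left out, and when the variance trend or the level filter was dropped (adjusted p = 0.0569 to 0.163). The sgKLHL14 call of ORC6 ended without sgKLHL14 ibrutinib replicate 2 (-0.17, adjusted p = 0.133), and CDC6 passed in sgCTRL in 3 alternatives (adjusted p = 0.0373 to 0.0484), including the fits without sgKLHL14 DMSO replicate 1 or 2.

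All 6 genes of the MCM2-7 helicase fell in sgKLHL14 and 4 of 6 in sgCTRL. MCM2 had log2 levels of 11.92 and 11.96 in sgKLHL14 ibrutinib, against 12.63 and 12.49 in sgKLHL14 DMSO, and of 12.15 and 12.12 in sgCTRL ibrutinib, against 12.40 and 12.39 in sgCTRL DMSO. Its groups did not overlap with either guide, and it fell by 0.63 in sgKLHL14 (SE 0.061, limma adjusted p = 1.44e-07) and by 0.26 in sgCTRL (adjusted p = 0.00274). MCM6 was at 11.86 and 11.82 in sgKLHL14 ibrutinib, against 12.38 and 12.50 in DMSO, and at 11.86 and 11.88 in sgCTRL ibrutinib, against 12.28 and 12.33 in DMSO. The ibrutinib libraries of both guides were thus nearly level, and MCM6 fell by 0.60 in sgKLHL14 (SE 0.060, adjusted p = 2.22e-07) and by 0.43 in sgCTRL (adjusted p = 1.47e-05). MCM4 was at 12.80 and 12.79 in sgKLHL14 ibrutinib, against 13.29 and 13.30 in DMSO (-0.50, SE 0.055, adjusted p = 7.94e-07), and at 12.95 and 12.95 in sgCTRL ibrutinib, against 13.21 and 13.14 in DMSO (-0.23, adjusted p = 0.00362).

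Of the other ring subunits, MCM3 fell by 0.41 in sgKLHL14 and 0.16 in sgCTRL, MCM7 fell by 0.45 in sgKLHL14 and was at -0.12 in sgCTRL, and MCM5 fell by 0.23 in sgKLHL14 and was at -0.04 in sgCTRL. Subunits of a single ring thus differed in their mRNA response by up to 0.39 on the log2 scale in sgCTRL, a difference between subunits that was not tested. MCM3 lost its sgCTRL call without sgCTRL DMSO replicate 1 or either sgCTRL ibrutinib library and in 2 other alternatives (adjusted p = 0.0602 to 0.247), and MCM4 lost it without sgCTRL ibrutinib replicate 1 (0.0508). MCM5 lost its sgKLHL14 call without replicate 1 of either sgKLHL14 group, and when the variance trend or the level filter was dropped (0.0934 to 0.157).

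Among factors that activate the helicase or travel with it, 7 of 8 fell with each guide. CDC45, which joins the MCM ring at firing origins, was at 10.15 and 10.23 in sgKLHL14 ibrutinib, against 10.89 and 10.79 in DMSO (-0.65, SE 0.072, limma adjusted p = 7.17e-07). With sgCTRL it was at 10.34 and 10.41 in ibrutinib, against 10.76 and 10.70 in DMSO (-0.36, adjusted p = 0.000682). MCM10, a scaffold of helicase activation, fell by 0.54 in sgKLHL14 and 0.37 in sgCTRL.

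Of the GINS subunits, 3 of 4 fell with each guide. GINS2 was at 9.04 and 8.93 in sgKLHL14 ibrutinib, against 9.65 and 9.63 in DMSO, and at 9.01 and 8.83 in sgCTRL ibrutinib, against 9.59 and 9.47 in DMSO. It fell by 0.66 in sgKLHL14 (SE 0.095, limma adjusted p = 2.05e-05) and by 0.61 in sgCTRL (adjusted p = 5.98e-05). GINS1 fell by 0.55 in sgKLHL14 and 0.19 in sgCTRL, and GINS4 by 0.47 in sgKLHL14 and 0.26 in sgCTRL. GINS3 went the other way in sgCTRL, at 10.21 and 10.09 in ibrutinib against 9.90 and 9.93 in DMSO, and rose by 0.23 (SE 0.080, adjusted p = 0.0286). In sgKLHL14 it was at 10.04 and 9.97 in ibrutinib, against 10.08 and 9.93 in DMSO, with overlapping groups (0.001, adjusted p = 0.994). The rise of GINS3 lost its call when any of the 4 sgCTRL libraries was left out and in 3 other alternatives (adjusted p = 0.05004 to 0.247). GINS1 lost its sgCTRL call without sgCTRL DMSO replicate 2 or either sgCTRL ibrutinib library and in 4 other alternatives (0.0505 to 0.242), and GINS4 without either sgCTRL DMSO library or sgCTRL ibrutinib replicate 2 and in 2 others (0.0678 to 0.248).

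WDHD1, which tethers polymerase alpha to the helicase, was at 10.79 and 10.93 in sgKLHL14 ibrutinib, against 11.34 and 11.52 in DMSO, and at 10.99 and 11.02 in sgCTRL ibrutinib, against 11.42 and 11.47 in DMSO. It fell by 0.57 in sgKLHL14 (SE 0.072, limma adjusted p = 3.62e-06) and by 0.44 in sgCTRL (adjusted p = 8.88e-05). CLSPN, a checkpoint mediator at the fork, fell by 0.40 in sgKLHL14 and 0.27 in sgCTRL. Its sgCTRL call ended when any of the 4 sgCTRL libraries was left out and in 3 other alternatives (adjusted p = 0.0514 to 0.104).

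**Figure D2:**
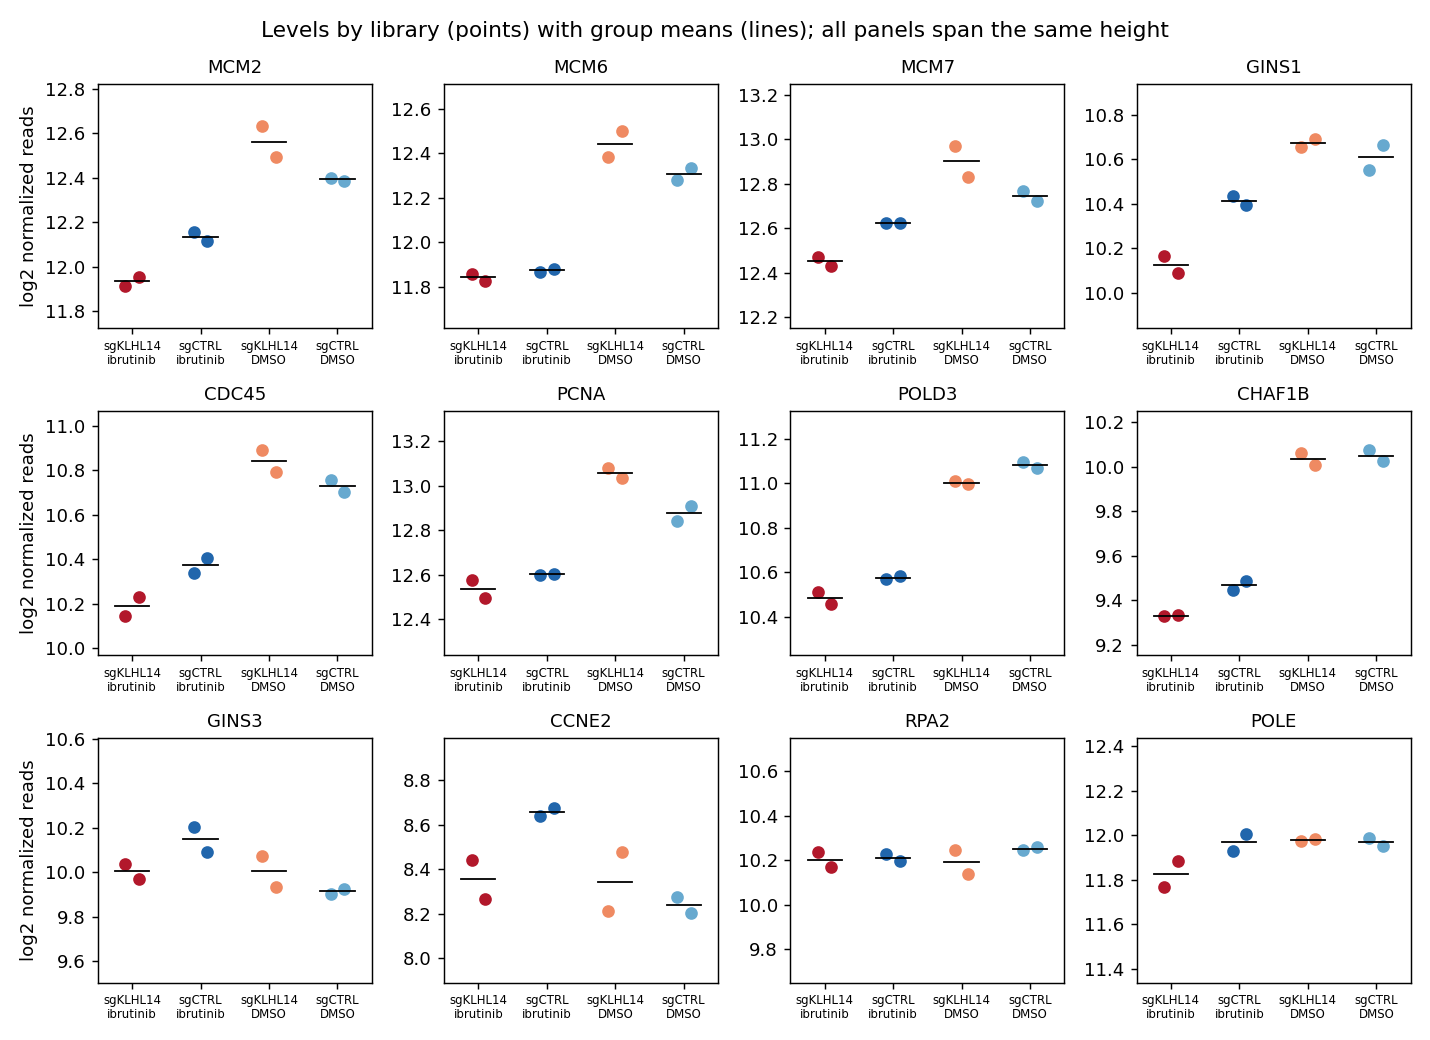
Log2 normalized reads of 12 replication genes in each library (points) with group means (lines), over the same height of 1.1 log2 units in each panel. MCM2 runs from 11.92 in sgKLHL14 ibrutinib to 12.63 in sgKLHL14 DMSO, while RPA2 stays between 10.14 and 10.26 in all 8 libraries.

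Of the subunits of polymerases delta and epsilon, 4 of 5 fell in sgKLHL14 and 3 of 5 in sgCTRL. POLD3, an accessory subunit of polymerase delta, was at 10.51 and 10.46 in sgKLHL14 ibrutinib, against 11.01 and 10.999 in DMSO, and at 10.57 and 10.58 in sgCTRL ibrutinib, against 11.10 and 11.07 in DMSO. It fell by nearly the same amount with both guides, 0.52 in sgKLHL14 (SE 0.065, limma adjusted p = 3.64e-06) and 0.51 in sgCTRL (adjusted p = 5.64e-06). POLE2, an accessory subunit of polymerase epsilon, fell by 0.74 in sgKLHL14, the largest decrease of the 45 genes there, and by 0.55 in sgCTRL. POLE, the catalytic subunit of the same enzyme, was at -0.15 in sgKLHL14 (adjusted p = 0.058) and 0.00 in sgCTRL and passed in neither. POLD1, the catalytic subunit of polymerase delta, fell by 0.23 in sgKLHL14 and was at -0.14 in sgCTRL, and POLD2, which joins POLD3 to it, fell by 0.26 in sgKLHL14 and 0.30 in sgCTRL.

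In polymerase alpha with primase, which lays down the primers, the catalytic POLA1 fell by 0.49 in sgKLHL14 and 0.31 in sgCTRL and the primase subunit PRIM1 by 0.53 in sgKLHL14 and 0.33 in sgCTRL. POLA2 fell by 0.39 in sgKLHL14 and was at -0.16 in sgCTRL, and the other primase subunit, PRIM2, was at -0.23 in sgKLHL14 and -0.18 in sgCTRL and passed in neither. In sgCTRL, PRIM1 lost its call without sgCTRL ibrutinib replicate 1 (adjusted p = 0.0705) and POLD2 without the variance trend (0.0616), while POLD1 passed in the fit on the compared groups alone (0.0447) and POLA2 with thinned reads (0.0345). In sgKLHL14, POLD1 lost its call without sgKLHL14 DMSO replicate 1 or sgKLHL14 ibrutinib replicate 2 and without the variance trend (0.0595 to 0.0782), and POLD2 without sgKLHL14 DMSO replicate 1, the level filter or the variance trend (0.0540 to 0.158). POLE passed there with the replicate block (0.0420) and without sgKLHL14 ibrutinib replicate 2 (0.0380).

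The clamp and its loader fell in all 6 cases in sgKLHL14 and in 4 of 6 in sgCTRL. PCNA, the sliding clamp, was at 12.58 and 12.49 in sgKLHL14 ibrutinib, against 13.08 and 13.04 in DMSO, and at 12.60 and 12.61 in sgCTRL ibrutinib, against 12.84 and 12.91 in DMSO. It fell by 0.52 in sgKLHL14 (SE 0.058, limma adjusted p = 8.04e-07) and by 0.28 in sgCTRL (adjusted p = 0.00102). RFC4 fell by 0.54 in sgKLHL14 and 0.33 in sgCTRL, RFC5 by 0.49 in sgKLHL14 and 0.26 in sgCTRL, and RFC1, the large subunit of the loader, by 0.26 in sgKLHL14 and 0.32 in sgCTRL. RFC2 fell by 0.35 in sgKLHL14 and was at -0.13 in sgCTRL, and RFC3 fell by 0.41 in sgKLHL14 and was at -0.06 in sgCTRL. RFC5 lost its sgCTRL call without sgCTRL ibrutinib replicate 2 (adjusted p = 0.0778), and RFC2 its sgKLHL14 call without sgKLHL14 ibrutinib replicate 2 and without the variance trend (0.0626 to 0.136). RFC3 in sgCTRL depended on the 2 DMSO libraries, at 11.18 and 11.53, and was at -0.24 without replicate 1 (adjusted p = 0.0329) and at 0.12 without replicate 2. RefSeq lists 4 pseudogenes named after PCNA and 1 each after RFC3 and RFC5, which could take or lend reads.

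Of the RPA subunits, which coat single-stranded DNA, 1 of 3 fell in sgKLHL14 and 0 of 3 in sgCTRL. RPA2 was at 10.24 and 10.17 in sgKLHL14 ibrutinib, against 10.24 and 10.14 in DMSO, and at 10.23 and 10.20 in sgCTRL ibrutinib, against 10.24 and 10.26 in DMSO. Its changes of 0.01 in sgKLHL14 and -0.04 in sgCTRL (SE 0.074) did not pass, nor did those of RPA1, at -0.10 in sgKLHL14 and -0.005 in sgCTRL. RPA3 fell by 0.27 in sgKLHL14 (limma adjusted p = 0.0390) and was at -0.03 in sgCTRL. That call ended when any of the 4 sgKLHL14 libraries was left out and in 3 other alternatives (adjusted p = 0.0562 to 0.162), and the RPA3 locus overlaps the protein-coding gene UMAD1. Of the enzymes that finish Okazaki fragments, the flap nuclease FEN1 fell by 0.32 in sgKLHL14 and 0.20 in sgCTRL, and the ligase LIG1 fell by 0.26 in sgKLHL14 and was at -0.09 in sgCTRL. FEN1 lost its sgCTRL call without sgCTRL DMSO replicate 1 or either sgCTRL ibrutinib library and in 2 other alternatives (0.0567 to 0.158), and LIG1 its sgKLHL14 call without sgKLHL14 DMSO replicate 1 and without the variance trend (0.0723 to 0.0822).

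Of the genes that copy chromatin and its DNA methylation behind the fork, 2 of 4 fell with each guide. CHAF1B, a subunit of the histone chaperone CAF-1, was at 9.33 and 9.33 in sgKLHL14 ibrutinib, against 10.06 and 10.01 in DMSO, and at 9.45 and 9.49 in sgCTRL ibrutinib, against 10.08 and 10.03 in DMSO. It fell by 0.70 in sgKLHL14 (SE 0.079, limma adjusted p = 9.84e-07) and by 0.58 in sgCTRL (adjusted p = 1.12e-05). CHAF1A, the large subunit of CAF-1, fell by 0.38 in sgKLHL14 and 0.25 in sgCTRL. DNMT1, the maintenance DNA methyltransferase, was at -0.14 in sgKLHL14 and -0.005 in sgCTRL, and UHRF1, which recruits it to hemimethylated DNA, at -0.17 in sgKLHL14 and 0.05 in sgCTRL, and neither passed (adjusted p = 0.0722 for DNMT1 and 0.0539 for UHRF1 in sgKLHL14). CHAF1A lost its sgCTRL call without sgCTRL DMSO replicate 1 or either sgCTRL ibrutinib library and in 3 other alternatives (adjusted p = 0.0519 to 0.285). In sgKLHL14, DNMT1 passed without sgCTRL DMSO replicate 1 or 2 (0.0497 to 0.0498), and UHRF1 in those fits and with the replicate block (0.0427 to 0.0452).

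The cyclin E genes encode the activators of CDK2 at the G1 to S transition. CCNE2 was at 8.44 and 8.27 in sgKLHL14 ibrutinib, against 8.21 and 8.48 in DMSO, with overlapping groups (0.01, SE 0.12, limma adjusted p = 0.953). With sgCTRL it was at 8.64 and 8.68 in ibrutinib, against 8.28 and 8.21 in DMSO, and rose by 0.42 (adjusted p = 0.0110). CCNE1 fell by 0.24 in sgKLHL14 (adjusted p = 0.0212) and was at -0.20 in sgCTRL. SLBP, which binds the stem-loop of histone mRNA, fell by 0.38 in sgKLHL14 and 0.29 in sgCTRL. CCNE2 had 141 to 292 reads per library, its locus overlaps the protein-coding INTS8 and NDUFAF6, and its rise lost the call without sgCTRL DMSO replicate 2 or sgCTRL ibrutinib replicate 2 (adjusted p = 0.0667 to 0.0706). The fall of CCNE1 lost it without sgKLHL14 DMSO replicate 1, without either sgKLHL14 ibrutinib library and without the variance trend (0.0520 to 0.200), and SLBP lost its sgCTRL call without sgCTRL ibrutinib replicate 1 (0.0507).

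The responses of genes with and without an E2F-type string are given side by side, and their difference was not tested. In sgKLHL14 the 19 genes with a string had a median log2 change of -0.41 (15 fell) and the 19 without one a median of -0.38 (17 fell). In sgCTRL the medians were -0.16 with a string (10 fell, 1 rose) and -0.27 without (13 fell). The difference between the responses with sgKLHL14 and with sgCTRL had a median of -0.21 in genes with a string and -0.13 in those without.

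A further 35 replication genes, listed by function but with earlier results of these data known, mostly moved the same way. In sgKLHL14 21 fell (60%) and 1 rose (median -0.30), while of all tested genes 19.4% fell and 19.9% rose. In sgCTRL 13 fell (37.1%) and 3 rose (median -0.19), while of all tested genes 17.0% fell and 18.1% rose. The decreases with the smallest p in sgKLHL14 were HELLS (-0.53), a chromatin remodeller, MCMBP (-0.55), which binds MCM proteins, DBF4 (-0.49), the activator of the origin-firing kinase CDC7, and DTL (-0.48), a ubiquitin ligase adaptor for CDT1. In sgCTRL they were DTL (-0.40), DBF4 (-0.40), the checkpoint kinase CHEK1 (-0.48) and HELLS (-0.36).

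POLD4, the smallest subunit of polymerase delta, rose with both guides. It was at 10.56 and 10.52 in sgKLHL14 ibrutinib, against 9.77 and 9.47 in DMSO, and at 10.79 and 10.69 in sgCTRL ibrutinib, against 9.46 and 9.62 in DMSO. The rise was 1.89-fold in sgKLHL14 (SE 0.092 on the log2 scale, limma adjusted p = 2.08e-07) and 2.30-fold in sgCTRL (adjusted p = 6.35e-09), opposite to the decreases of POLD1, POLD2 and POLD3 where those passed. ATR (0.24), the kinase of the replication checkpoint, and RNASEH2C (0.30), a subunit of ribonuclease H2, rose in sgCTRL and did not pass in sgKLHL14, at 0.18 for ATR and 0.05 for RNASEH2C.

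The next comparisons ask whether the replication genes differed between guides. In DMSO, 0 of 45 passed in limma and 0 with voom, while of all tested genes 1.64% passed, 0.782% higher and 0.862% lower. The 8 genes at an unadjusted p under 0.05 (17.8%, against 13.8% of all tested genes) were higher in sgKLHL14. Of the 45 changes 38 were above 0 (against 50.8% over all tested genes), and the median was 0.08. The 45 genes vary together, so counts of signs, here and under ibrutinib, are not counts of separate observations. PCNA had the smallest p, with 13.08 and 13.04 in sgKLHL14 DMSO against 12.84 and 12.91 in sgCTRL DMSO (0.18, SE 0.058, adjusted p = 0.141). RPA3 was at 10.06 and 9.98 in sgKLHL14, against 9.54 and 9.93 in sgCTRL (0.29, adjusted p = 0.184). MCM2 was at 12.63 and 12.49 in sgKLHL14, against 12.40 and 12.39 in sgCTRL (0.17, adjusted p = 0.199), and POLA2 at 10.79 and 10.72 in sgKLHL14, against 10.53 and 10.60 in sgCTRL (0.20, adjusted p = 0.206). The groups did not overlap for any of these 4 genes, and sgKLHL14 lay above sgCTRL for 22 of the 45 genes in all (21.5% of all tested genes) and below it for 3 (20.2%). Without sgCTRL DMSO replicate 2, RPA3 (0.48, adjusted p = 0.0251) and RFC3 (0.39, 0.0226) passed, and without sgKLHL14 DMSO replicate 2, MCM2 did (0.24, 0.0455).

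Under ibrutinib the signs were the other way. Of the 45 genes 1, GINS1, was lower in sgKLHL14 past the threshold, while of all tested genes 2.38% passed, 0.790% lower and 1.59% higher. The 13 genes at an unadjusted p under 0.05 (28.9%, against 12.9% of all tested genes) were lower, 41 of 45 changes were below 0 (against 51.4% over all tested genes), and the median was -0.11. GINS1 was at 10.17 and 10.09 in sgKLHL14 ibrutinib against 10.43 and 10.39 in sgCTRL ibrutinib (-0.29, SE 0.072, limma adjusted p = 0.0364). MCM2 was at 11.92 and 11.96 in sgKLHL14, against 12.15 and 12.12 in sgCTRL (-0.20, adjusted p = 0.0997). MCM7 was at 12.47 and 12.43 in sgKLHL14, against 12.62 and 12.62 in sgCTRL (-0.17, adjusted p = 0.173), and CHAF1A at 9.996 and 9.88 in sgKLHL14, against 10.17 and 10.17 in sgCTRL (-0.24, adjusted p = 0.186). For 32 of the 45 genes both sgKLHL14 libraries lay below both sgCTRL libraries (22.3% of all tested genes), and for 3 above them (21.6%). The call of GINS1 ended when any of the 4 ibrutinib libraries was left out, with voom, and when the variance trend or the level filter was dropped (adjusted p = 0.0560 to 0.289). MCM2 passed in the fit on the compared groups alone and without either sgKLHL14 DMSO library (0.0425 to 0.0493).

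**Figure D3:**
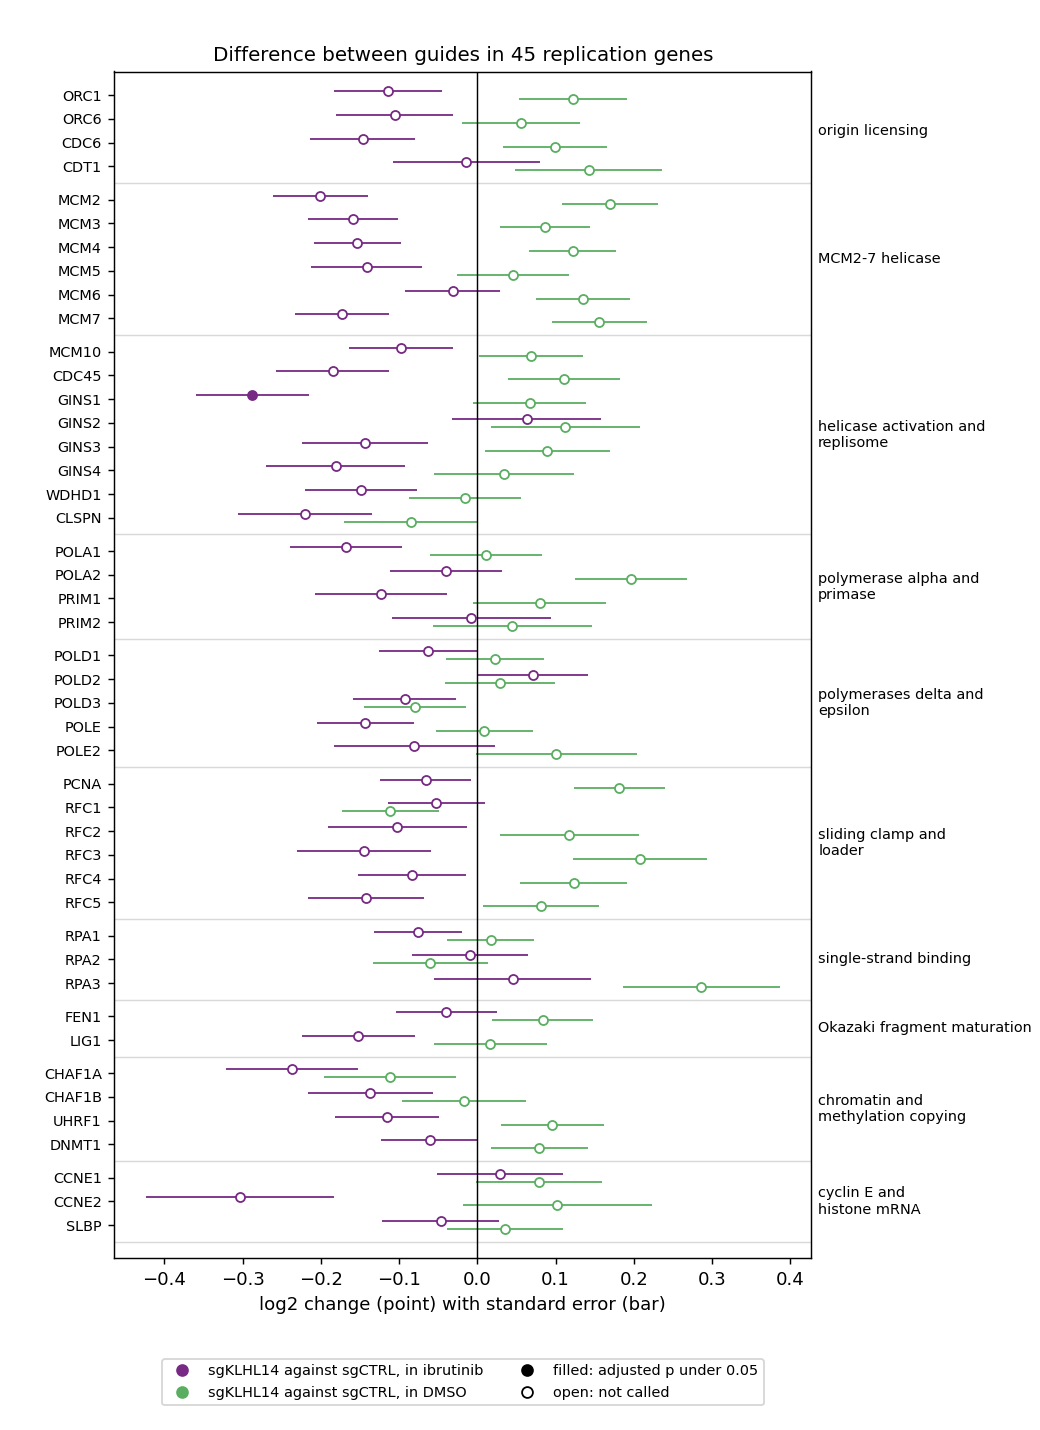
Log2 difference (sgKLHL14 against sgCTRL) of each replication gene in ibrutinib (purple) and in DMSO (green), by role, with standard errors; filled points passed an adjusted p of 0.05. Purple points lie below 0 for 41 genes and green points above 0 for 38, and the only filled point is GINS1 in ibrutinib.

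The guide by ibrutinib interaction tests whether the response to ibrutinib itself differed between guides. It is the difference of the comparisons above, shares all their libraries, and so repeats their pattern. By limma, 0 of 45 genes passed, and 0 with voom, while 3 of all tested genes did (0.0239%, 0.0160% with a positive and 0.00798% with a negative interaction). The targeted gene KLHL14, not among the 45, was 1 of these 3 (0.66, limma adjusted p = 0.00164). At an unadjusted p under 0.05 there were 15 genes (33.3%, against 5.69% of all tested genes), all with a more negative change in sgKLHL14. The interaction was below 0 for 42 of 45 genes, against 51.1% over all tested genes, with a median of -0.18 beside -0.005. These genes vary together and are not independent replicates.

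The smallest p-values belonged to helicase genes. For MCM2 the response was -0.63 in sgKLHL14 and -0.26 in sgCTRL, a difference of -0.37 (95% interval -0.55 to -0.19, limma adjusted p = 0.386). For MCM7 the response was -0.45 in sgKLHL14 and -0.12 in sgCTRL, a difference of -0.33 (-0.51 to -0.15, adjusted p = 0.477), and for MCM4 -0.50 in sgKLHL14 and -0.23 in sgCTRL, a difference of -0.28 (-0.44 to -0.11, adjusted p = 0.552). By role, the median interaction ran from -0.26 for the MCM2-7 ring, below 0 in 6 of 6 genes, to -0.08 for the cyclin E genes and SLBP. It was -0.22 for the clamp and loader, below 0 in 5 of 6, and -0.09 for RPA and for polymerases delta and epsilon. Single genes departed from these medians. CCNE2 had the largest interaction of the 45 genes (-0.41, 95% interval -0.76 to -0.05, limma adjusted p = 0.873), and RFC3 was at -0.35 (adjusted p = 0.718). POLD3 (-0.01, 95% interval -0.21 to 0.18) and GINS2 (-0.05, -0.33 to 0.23), among the genes that fell most in sgCTRL, were near 0. Of the others that fell most there, CHAF1B was at -0.12, POLE2 at -0.18 and CDT1 at -0.16. The median over the 45 genes was -0.18. The sgCTRL change is subtracted in the interaction, so choosing genes by a large fall there favours higher values.

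**Figure D4:**
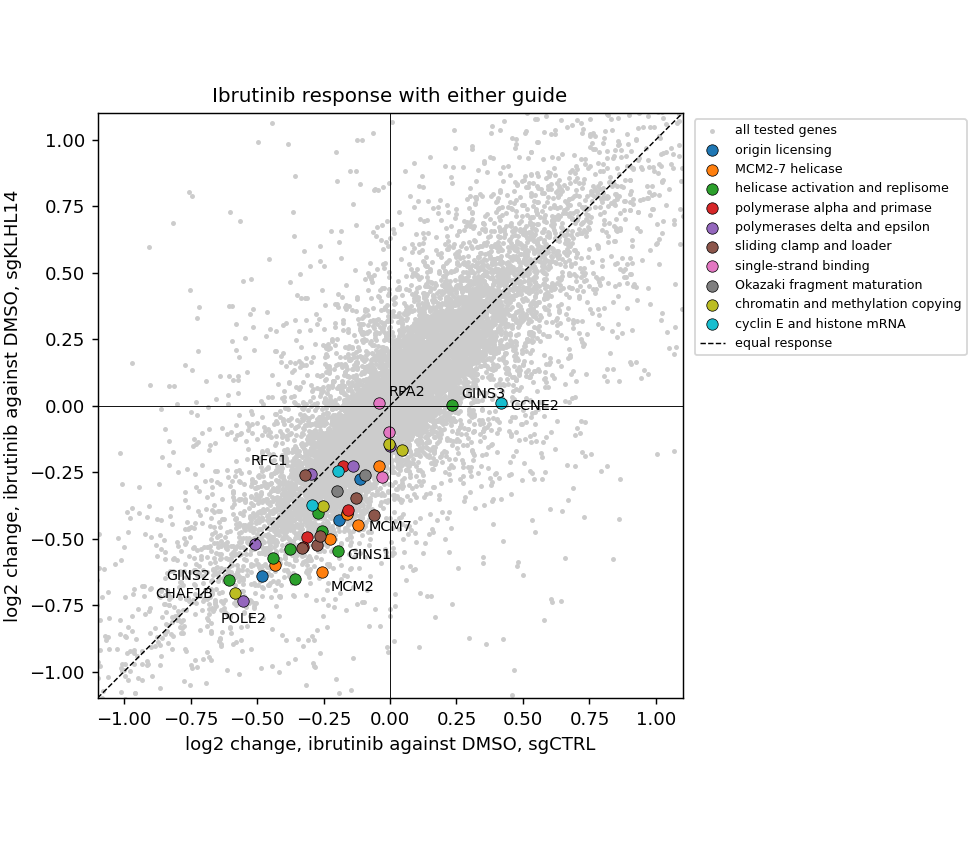
Log2 change (ibrutinib against DMSO) in sgKLHL14 cells (vertical) and sgCTRL cells (horizontal) for all tested genes within 1.1 log2 units (grey) and the 45 replication genes (coloured by role), with the line of equal response dashed. All but 3 of the 45 lie under the line, CCNE2, MCM2, MCM7 and GINS1 among the farthest, while POLD3 and GINS2 lie close to it.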

How the data were processed

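RNA-seq was measured in 8 libraries of TMD8 cells, 2 in each of 4 groups. The submitters' processing notes name bcl2fastq, STAR, HTSeq and the build hg19. Their versions and settings, the annotation and the use of strand in counting were not stated there or in the labels, so reads of overlapping genes cannot be told apart. RefSeq genes overlap 24 of the 45 loci, and pseudogenes are named after 8 of the 45 genes, RPA2 (3) and RPA3 (2) among them. The deposited values, tested on the file, are log2 of whole reads times 1 factor per library, with 0 reads listed at 0. Whole reads were recovered from 100% of values to within 6e-04 (log2), and 1 read was worth 1.16 to 2.19. The table had 0 columns of other samples, and its row of totals entered no test. Counting error is smaller in deeper libraries.

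Genes with a mean log2 value of at least 4.2 were kept, and none of these had a library without reads. Their log2 values, with no pseudocount, entered a linear model with a mean for each of 4 groups (limma 3.58.1, R 4.3.3), the variance prior following the mean (4 residual and 14.9 prior degrees of freedom), and adjusted by Benjamini-Hochberg over all 12531 genes. The fit was also run on simulated counts with the same spread setting for all genes and changes larger than most of those here. That run does not show how well changes of the present size are called. Libraries of 1 group differed by more than sampling noise (chi-square per degree of freedom 2.19 to 8.20). The genes, lists and tests were chosen with earlier results of these data known. Values per library are given for the 5 genes with the smallest p for each ibrutinib response, the 4 for each guide comparison, the 3 for the interaction, and any called against the majority. Those of RPA2, RFC3 and POLD4 were added after they were seen. Gene IDs of all listed genes matched RefSeq GRCh38.p14. Alternatives were other level filters, no variance trend, a robust prior, a replicate block, voom on recovered reads, a pseudocount of 16, quantile and median scaling, thinned reads, fits on the compared groups alone, and leaving out each library. One cell type marker in the design is not reported here.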

Additional observations from a re-analysis of the deposited data

How the results depend on the processing

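The replication genes kept the direction of their calls in every alternative run. The shares of calls kept that follow are for the replication genes. The same share over all called genes was not counted, so no comparison with other genes is made. Of the genes called in sgKLHL14 ibrutinib against DMSO, 29 of 37 passed in all 19 alternatives, and of those in sgCTRL, 14 of 28. The count of calls in sgCTRL was 18 to 29 when single libraries were left out, and in sgKLHL14 31 to 39. The guide comparison in DMSO had 0 to 2 calls in those fits. In ibrutinib it had 0 to 2 there, 0 without the level filter, 0 without the variance trend, 0 with voom and 2 in the fit on the compared groups alone. The interaction had 0 calls in all 18 alternatives. Scaling by quantiles or medians moved the median of all genes by at most 0.017. Deviations of libraries with the same replicate number correlated weakly between compared groups (-0.011 to 0.12), which does not settle whether the libraries were paired. With the replicate block 28 genes were called in sgCTRL, 39 in sgKLHL14, 0 for the guides in DMSO, 1 in ibrutinib and 0 for the interaction. Over all tested genes the calls between guides in DMSO numbered 206, against 47 without the level filter, 25 without the trend, 368 with the block and 64 to 530 with single libraries left out. In ibrutinib they numbered 298, against 155, 95 and 122 to 363 in the same fits without the block. The interaction had 3, against 0 without the level filter, 0 without the trend and 5 with the block, and ibrutinib in sgCTRL 4403, against 2902 to 4631 with single libraries left out. The cause of these shifts was not tested. Counting error weighs most on CCNE2 and POLE2, with as few as 141 reads (CCNE2) and 146 reads (POLE2) in a library.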
